A study of Mus musculus with 5 samples.

Results

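Clustered Zfp genes, the mouse genes for zinc finger proteins that lie next to others of their kind, were followed through ATRX chromatin immunoprecipitation and sequencing (ChIP-seq) peak lists of cultured mouse neurons. The members are the RefSeq protein-coding genes of GRCm38 on chromosomes 1 to 19 whose symbol is Zfp followed by a number and whose span lies within 100 kb of another such gene. There were 222 of them among 20665 protein-coding genes on these chromosomes, beside 166 Zfp genes with no such neighbour, and they formed 50 clusters of 2 to 23 genes on 13 chromosomes. Chromosomes 7, 17 and 13 held 76, 37 and 27 of them. No peak value enters this rule, but the members were chosen with earlier results of these data known. A RefSeq promoter table gave the strand of 192 members, so that their 5' end (the start of transcription) and 3' end could be told apart; for 30 members the strand was not given there.

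Neurons were cultured from C57BL6/J embryos and received lentivirus on day 5 in vitro. Of the 4 ChIP libraries, 1 carried TBC1D3, a gene of hominoids that mice lack, at day 14 in vitro (DIV14), and 1 a construct labelled MICAL1-M1 at DIV14; 1 carried the fluorescent protein mCherry at day 7 (DIV7), and 1 mCherry at DIV14, which is the control of the other 3. Every group is thus a single library of virus-treated primary neurons, no difference below has a replicate check, and the 3 differences from the control share that control. The peak names in the list labelled MICAL1-M1 begin with M2, which the labels do not explain. An input DNA sample was not analysed here. On chromosomes 1 to 19 the lists held 195085 peaks for TBC1D3, 140005 for MICAL1-M1, 207423 for mCherry at DIV7 and 96230 for the control, all down to an uncorrected p of 0.05. A q of at most 0.05 was reached by 0.152%, 0.440%, 0.186% and 4.19% of them in the same order. The background recovered from the peaks was 1.22, 2.61, 1.28 and 3.56 fragments, lowest in the TBC1D3 and DIV7 lists and highest in the control list; total reads per library are unknown here.

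Most genes of this kind encode arrays of C2H2 zinc fingers that read DNA, often joined to a KRAB domain, which recruits the corepressor TRIM28 and through it the methyltransferase SETDB1 that places H3K9me3, a mark of silent chromatin. Many of their products bind transposable elements, and the genes have multiplied by tandem duplication into clusters whose copies resemble each other. The fingers are usually encoded in the last exon, near the 3' end. ATRX is a chromatin remodeller that places histone H3.3 with the chaperone DAXX at repeats and heterochromatin; in human cells it has been mapped to the 3' exons of zinc finger genes, where H3K9me3 is also found.

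The promoters of 5 members are shown, 3 with a strong control peak near the gene start and 2 with no peak there. Those of Zfp866, Zfp263 and Zfp266 carried the highest control folds at a 5' end among members with a promoter sequence at the gene start. Zfp455 and Zfp456 belong to the largest cluster, on chromosome 13, and had no gene-end summit in any list; they come first by symbol among its members with none and with such a sequence. Each run gives 250 bases before to 50 after the start, from RefSeq (GRCm38.p6), 5' to 3', with CG pairs, the sites of DNA methylation, in capitals.
Zfp866 (chr8:69774862-69775161, strand minus): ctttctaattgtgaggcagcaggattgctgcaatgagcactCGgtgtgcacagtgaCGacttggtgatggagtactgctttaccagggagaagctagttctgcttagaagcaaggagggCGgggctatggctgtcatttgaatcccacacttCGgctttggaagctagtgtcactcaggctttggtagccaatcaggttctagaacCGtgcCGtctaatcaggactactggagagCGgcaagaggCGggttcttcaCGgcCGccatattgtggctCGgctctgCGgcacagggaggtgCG
Zfp263 (chr16:3743849-3744148, strand plus): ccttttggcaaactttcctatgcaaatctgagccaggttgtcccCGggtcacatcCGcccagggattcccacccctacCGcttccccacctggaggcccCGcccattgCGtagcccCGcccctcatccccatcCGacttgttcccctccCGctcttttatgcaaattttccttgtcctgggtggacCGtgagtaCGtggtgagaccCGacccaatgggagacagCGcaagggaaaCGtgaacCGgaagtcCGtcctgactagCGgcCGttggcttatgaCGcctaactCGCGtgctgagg
Zfp266 (chr9:20521370-20521669, strand minus): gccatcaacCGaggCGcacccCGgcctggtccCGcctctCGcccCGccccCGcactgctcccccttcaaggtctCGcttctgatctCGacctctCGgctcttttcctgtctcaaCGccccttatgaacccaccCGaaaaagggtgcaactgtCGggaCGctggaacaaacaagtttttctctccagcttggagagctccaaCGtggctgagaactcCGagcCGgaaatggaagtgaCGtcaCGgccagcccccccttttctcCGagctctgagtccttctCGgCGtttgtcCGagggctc
Zfp455 (chr13:67194256-67194555, strand plus): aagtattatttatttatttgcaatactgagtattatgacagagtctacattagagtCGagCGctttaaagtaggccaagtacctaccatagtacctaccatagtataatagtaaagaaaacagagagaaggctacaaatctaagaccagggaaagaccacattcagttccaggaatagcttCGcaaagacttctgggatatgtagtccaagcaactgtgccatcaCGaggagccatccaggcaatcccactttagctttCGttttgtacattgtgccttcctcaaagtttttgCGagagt
Zfp456 (chr13:67375714-67376013, strand minus): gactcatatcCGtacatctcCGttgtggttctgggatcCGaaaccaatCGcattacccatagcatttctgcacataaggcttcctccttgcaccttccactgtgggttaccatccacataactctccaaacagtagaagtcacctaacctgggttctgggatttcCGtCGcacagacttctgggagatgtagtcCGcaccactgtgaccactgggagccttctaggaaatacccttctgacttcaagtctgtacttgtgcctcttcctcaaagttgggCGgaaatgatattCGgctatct
The control summit lay outside the printed run for Zfp866 (610 bp inside the gene) and Zfp263 (at -277 bp from the 5' end), and inside it for Zfp266 (at -231 bp). The first 3 runs hold 13, 20 and 23 CG pairs, and the promoters of Zfp455 and Zfp456 hold 6 and 9.

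A gene is called occupied here when the summit of a peak, its highest point, lies within 1 kb of either gene end. With TBC1D3 66 of the 222 members were occupied, which is 29.7% (95% exact binomial interval 23.8 to 36.2), beside 34.7% of all protein-coding genes. With MICAL1-M1 106 members were occupied, 47.7% (41.0 to 54.5), beside 40.4% of all genes. In mCherry neurons at DIV7 there were 82, 36.9% (30.6 to 43.7), beside 34.3%. The control had 123, 55.4% (48.6 to 62.1), beside 44.3%. The members' share thus lay above that of all genes with MICAL1-M1 and in the control, while the intervals for TBC1D3 and DIV7 include the share of all genes. The difference from the control was -25.7 percentage points with TBC1D3, -7.66 with MICAL1-M1 and -18.5 at DIV7; over all genes it was -9.54, -3.91 and -9.94 in the same order. Intervals cover counting error only, and members that share a peak are not independent. The 166 Zfp genes without a Zfp neighbour were occupied in 62 cases with TBC1D3 (37.3%), 83 with MICAL1-M1, 61 at DIV7 (36.7%) and 107 in the control (64.5%). The 27 Zkscan and Zscan genes, which encode related zinc finger proteins with a SCAN domain, were occupied in 4, 8, 9 and 10 cases in the same order of libraries. With lists cut to equal size, 38 members were occupied with TBC1D3 (17.1%, beside 20.4% of all genes), 91 with MICAL1-M1 (41.0%, beside 35.2%) and 40 at DIV7 (18.9% of all genes), against 123 in the control. In a 3 kb window the numbers were 131, 143, 142 and 138, beside 59.8%, 55.4%, 61.1% and 55.5% of all genes, where the members' shares were 59.0%, 64.4%, 64.0% and 62.2%. The difference from the control was then -3.15 points with TBC1D3, 2.25 with MICAL1-M1 and 1.80 at DIV7, against 4.28, -0.11 and 5.59 over all genes.

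**Figure D1:**
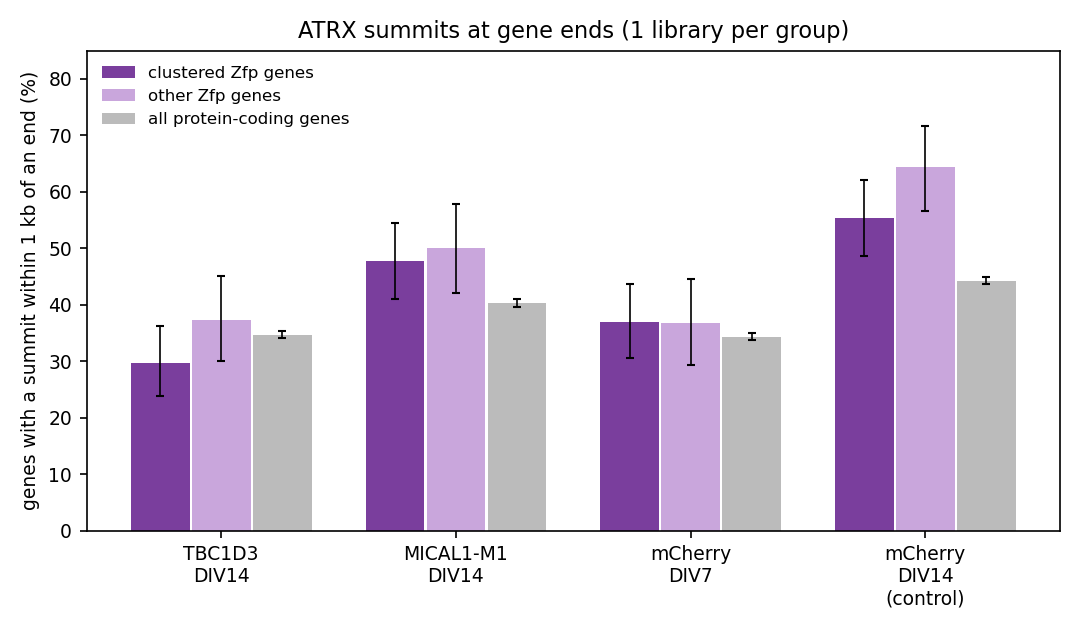
Share of genes (percent) with an ATRX summit within 1 kb of either gene end in each of the 4 libraries, for 222 clustered Zfp genes, 166 other Zfp genes and 20665 protein-coding genes; bars are counts of genes over genes, and error lines are 95% exact binomial intervals that cover counting error only. The clustered genes stand at 29.7% with TBC1D3, 47.7% with MICAL1-M1, 36.9% at DIV7 and 55.4% in the control.

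More members had a summit at the 5' end than at the 3' end, near which the fingers are usually encoded. For comparison, 133 Zfp genes without a Zfp neighbour had a known strand. Their 5' shares were 30.8% with TBC1D3, 48.1% with MICAL1-M1, 26.3% at DIV7 and 61.7% in the control, each above that of the members. With TBC1D3 43 of the 192 members with a known strand had a summit at the 5' end (22.4%, beside 25.3% of all genes) and 18 at the 3' end (9.38%, beside 13.7%). With MICAL1-M1 87 members had a 5' summit (45.3%, beside 36.2%) and 7 a 3' summit (3.65%, beside 8.25%). At DIV7 there were 46 at the 5' end (24.0%, beside 25.0%) and 32 at the 3' end (16.7%, beside 13.2%). The control had 100 at the 5' end (52.1%, beside 41.7%) and 5 at the 3' end (2.60%, beside 6.15%). Thus 5' summits outnumbered 3' summits in every list by count, 2.39 to 1 with TBC1D3, 12.4 to 1 with MICAL1-M1 and 1.44 to 1 at DIV7, and 100 to 5 in the control. Of the 100 members with a 5' summit in the control, 18 also had one with TBC1D3 (34.0% of all genes with a control 5' summit did), 61 with MICAL1-M1 (62.3% of all) and 28 at DIV7 (33.1% of all). At the 3' end the TBC1D3 list had 16 members that the control lacked (8.33%, beside 12.4% of all genes), MICAL1-M1 had 6 (3.13%, beside 6.3%) and DIV7 had 31 (16.1%, beside 11.9%).

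Where the strongest gene-end summit of a member lay at its 5' end, it was a median of 192.5 bp downstream of the gene's 5' end with TBC1D3 (quartiles -146 and 391.5 bp, 40 members), 190 bp with MICAL1-M1 (quartiles -129 and 422 bp, 84 members), 226 bp at DIV7 (-248 and 449 bp, 44 members) and 187 bp in the control (67 and 334 bp, 99 members). A few members with a 5' summit and a stronger 3' one are left out of these distances. The summit was downstream in 27 of 40 members with TBC1D3, 59 of 84 with MICAL1-M1, 28 of 44 at DIV7 and 82 of 99 in the control. In the first 500 bp after the 5' end there were 0.219 summits per member and kb with TBC1D3, 0.5 with MICAL1-M1, 0.198 at DIV7 and 0.740 in the control. All genes had 0.204, 0.316, 0.211 and 0.397 there. Members and all genes thus differed in the control and in MICAL1-M1 but hardly in the other lists. Zfp genes without a Zfp neighbour had 0.316, 0.602, 0.316 and 0.662 there. The excess over all genes was thus not confined to the clustered genes. In the last 5 kb before the 3' end the members had 0.0552 summits per gene and kb with TBC1D3 (0.0719 over all genes), 0.0354 with MICAL1-M1 (0.0434), 0.0958 at DIV7 (0.0723) and 0.0177 in the control (0.0332). DIV7 was the only one of the 4 lists in which the members lay above all genes in that stretch; its member peaks at the 3' end rest on a median of 4 fragments over a background of 1.28.

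**Figure D2:**
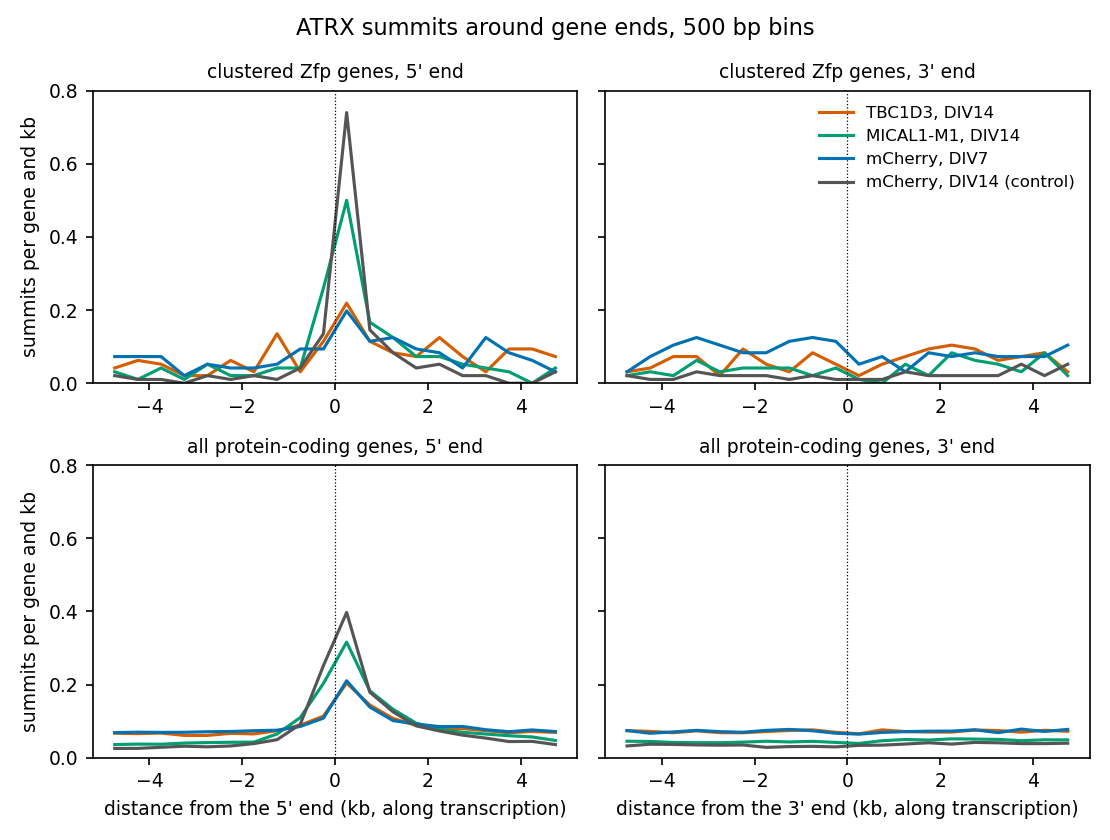
Summits per gene and kb in 500 bp bins around the 5' end (left) and the 3' end (right), along the direction of transcription, for 192 clustered Zfp genes (above) and 16457 protein-coding genes with a known strand (below); each line is 1 library. The members' control line reaches 0.740 in the first bin after the 5' end, against 0.397 for all genes, and no such peak stands at the 3' end.

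A q of at most 0.05 at a gene end was reached by 0 members with TBC1D3 (beside 0.15% of all genes) and 4 with MICAL1-M1 (beside 1.4%). At DIV7 there was 1 (beside 0.237%) and in the control there were 19 (beside 8.95%), where 19 of 222 is 8.56%. A count of 0 of 222 allows a share of up to about 1.35%, taken as 3 over the number of members and not as an exact interval. Folds are the authors' own per peak, over the caller's background in that library, and are not compared between lists. The control's 19 had folds from 3.19 to 5.26 on 14 to 23 fragments. The highest was at Zfp869 (control peak on chromosome 8, 69716119 to 69716913, GRCm38 positions; 5.26-fold, 23 fragments, summit 270 bp inside the 5' end), and no other list had a summit at its ends. Next came Zfp647, with 2.14-fold for MICAL1-M1 and 4.13-fold in the control. Zfp746, whose product PARIS is a substrate of the ubiquitin ligase parkin, had 2.71-fold with TBC1D3, 2.77-fold with MICAL1-M1 and 3.94-fold in the control, and no summit at DIV7. Zfp866 and Zfp810 had the same control fold, 3.94; each had a gene-end summit with MICAL1-M1 as well, and Zfp810 also at DIV7.

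The other high control folds were those of Zfp119a (3.77-fold), Zfp334 and Zfp263 (3.72-fold each), Zfp251 (3.72-fold) and Zfp266 (3.65-fold). Of the 19 members, 5 were also occupied with TBC1D3, 14 with MICAL1-M1 and 6 at DIV7; of all 1849 genes with such a control peak the shares were 47.5%, 74.7% and 46.7%. With MICAL1-M1 the 4 members at this threshold were Zfp334 and Zfp940 (3.88-fold each, 13 fragments) and the pair Zfp398 and Zfp786, which share 1 peak between their ends (3.62-fold, 14 fragments). At DIV7 the single member was Zfp871 (peak on chromosome 17, 32787802 to 32788207; 4.38-fold, 9 fragments), which had 1.69-fold with MICAL1-M1 and 3.11-fold in the control. TBC1D3 had no summit at the ends of Zfp871.

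Only 9 members were occupied in all 4 lists (4.05%, beside 6.58% of all genes), and 32 in none (14.4%, beside 24.6%). Between these, 66 members were occupied in 1 list, 70 in 2 and 45 in 3. Shares over all genes are given here for single patterns and not for these counts, which are therefore only descriptive. The most frequent pattern was occupancy with MICAL1-M1 and in the control alone, with 33 members (14.9%, beside 9.14% of all genes). After the members in no list came those in the control alone, 24 members (10.8%, beside 6.63%). TBC1D3 and DIV7 without the other 2 lists shared 7 members (3.15%, beside 3.42%). Of the 9 members found everywhere, Zfp942 and Zfp943 share a start region on chromosome 17 and the same peaks, with 3.60-fold for TBC1D3, 2.77-fold for MICAL1-M1, 2.02-fold at DIV7 and 2.02-fold in the control. Zfp646 and Zfp668 likewise share peaks on chromosome 7 (2.71-fold, 2.77-fold, 2.19-fold and 2.70-fold), and so do Zfp758 and Zfp944 on chromosome 17 in the TBC1D3, MICAL1-M1 and control lists (2.26-fold, 2.76-fold and 2.85-fold). Zfp316, Zfp707 and Zfp768 complete the 9. The 123 occupied members of the control rest on 125 distinct peaks, the 66 of TBC1D3 on 75, the 106 of MICAL1-M1 on 115 and the 82 of DIV7 on 93.

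Against the control, TBC1D3 lost 89 members and gained 32; here lost means occupied in the control alone of the 2 lists, gained the reverse, and neither stands for a tested change. That is 40.1% of the members lost and 14.4% gained, beside 25.5% and 15.9% of all genes. MICAL1-M1 lost 49 and gained 32 (22.1% and 14.4%, beside 15.8% and 11.9%). DIV7 lost 75 and gained 34 (33.8% and 15.3%, beside 25.8% and 15.9%). Of the 123 members occupied in the control, 34 were also occupied with TBC1D3 (27.6%, and 42.5% of all genes occupied in the control), 74 with MICAL1-M1 (60.2%, and 64.3%) and 48 at DIV7 (39.0%, and 41.7%). Beside Zfp869, the members found in the control alone with the highest folds were Zfp146 (3.32-fold, q of at most 0.05), Zfp524 and Zfp619 (3.07-fold each) and Zfp120 (2.63-fold). Another 6 members were occupied in the other 3 lists and not in the control (2.70%, beside 2.03% of all genes). Zfp991 on chromosome 4 led them, with 3.11-fold for TBC1D3, 3.13-fold for MICAL1-M1 and 3.15-fold at DIV7. It was followed by Zfp442, Zfp472, Zfp933 and Zfp939, whose folds ran from 1.98 to 2.78. None of these peaks had a q of at most 0.05.

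Summits in the bodies of the members differed widely in number between libraries. Here a body runs from 1 kb inside the gene start to 1 kb inside the gene end, and overlapping bodies were merged to 4.47 Mb. With TBC1D3 404 summits lay in member bodies, 90.4 per Mb (95% exact Poisson interval 81.8 to 99.6), beside 78.9 per Mb in the bodies of all genes. With MICAL1-M1 there were 121, 27.1 per Mb (22.5 to 32.3), beside 67.1. At DIV7 there were 423, 94.6 per Mb (85.8 to 104), beside 81.5. In the control there were 56, 12.5 per Mb (9.46 to 16.3), beside 48.7. The member bodies therefore held 1.15 times the density of all genes with TBC1D3, 0.404 times with MICAL1-M1, 1.16 times at DIV7 and 0.258 times in the control. Zfp genes without a Zfp neighbour had ratios of 1.02, 1.12, 1.02 and 0.957 in the same order.

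The median length was 15.8 kb for the members and 17.5 kb for all genes. A body summit was present in 144 members with TBC1D3 (64.9%, beside 63.6% of all genes), 95 with MICAL1-M1 (42.8%, beside 50.3%), 143 at DIV7 (64.4%, beside 64.5%) and 45 in the control (20.3%, beside 42.0%). Over the whole cluster spans, genes and the DNA between them, the density was 1.02 times that of chromosomes 1 to 19 with TBC1D3, 0.593 times with MICAL1-M1, 0.985 times at DIV7 and 0.596 times in the control. The median body peak of the members rests on 4 fragments with TBC1D3, 7 with MICAL1-M1, 5 at DIV7 and 10 in the control. With lists of equal size the ratios were 1.35, 0.374, 1.16 and 0.258. The background in fragments differs between the lists along with these ratios, and its part in them was not tested. How reads that match several near-identical copies were placed is not given in the sources used here, so a summit may belong to another copy.

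**Figure D3:**
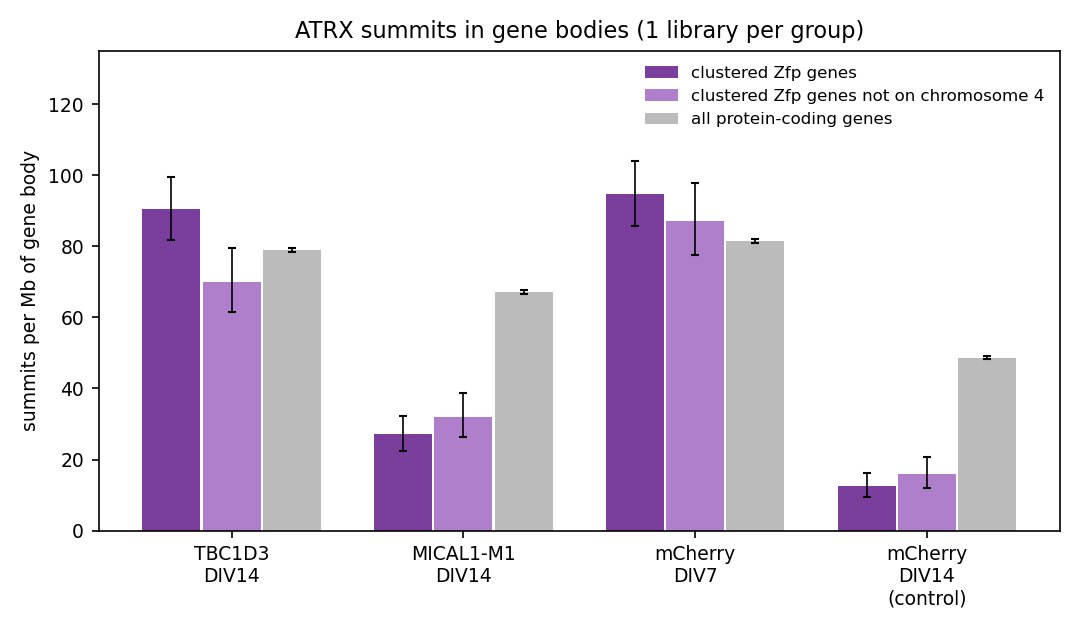
Summits per Mb of gene body in each library for the 222 clustered Zfp genes, for the 208 of them that are not on chromosome 4, and for all protein-coding genes; error lines are 95% exact Poisson intervals (counting error only). The members stand at 90.4, 27.1, 94.6 and 12.5 per Mb from left to right, and all genes at 78.9, 67.1, 81.5 and 48.7.

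A few large genes on chromosome 4 held much of this signal. The 14 members there, in clusters such as Zfp978 to Zfp933 (147124882 to 147849126, 9 genes), had 166 of the 404 body summits of TBC1D3 (154 per Mb), 12 of 121 with MICAL1-M1 (11.2 per Mb), 127 of 423 at DIV7 (118 per Mb) and 2 of 56 in the control (1.86 per Mb). Other genes on chromosome 4 had 78.4, 63.0, 79.2 and 46.1 per Mb, close to the values of all genes. The body of Zfp978, 267 kb long, held 64 summits with TBC1D3, 5 with MICAL1-M1, 37 at DIV7 and 1 in the control. That of Zfp993 held 33, 1, 35 and 1. The span of Zfp978 contains the members Zfp991 and Zfp988, and that of Zfp993 overlaps Zfp981. Counts for these single genes can therefore share summits. Without the chromosome 4 members, an alternative chosen after the data were seen, the ratio to all genes was 0.888 with TBC1D3, 0.479 with MICAL1-M1, 1.07 at DIV7 and 0.327 in the control, so the TBC1D3 ratio turned to below 1. The caller's local background was above the genome background for 45.2% of the chromosome 4 body peaks with TBC1D3 and 85.8% at DIV7, against 14.3% and 24.3% of the body peaks of the other members. Its part in the result was not tested.

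The body peaks with a q of at most 0.05 numbered 1 with TBC1D3, 0 with MICAL1-M1, 3 at DIV7 and 3 in the control. The TBC1D3 peak lay in Zfp978 (chromosome 4, 147186655 to 147187254; 4.50-fold, 9 fragments). Those of DIV7 lay in Zfp982 (4.58-fold), Zfp993 (4.21-fold) and Zfp978 (3.52-fold), all on chromosome 4. Those of the control lay in Zfp786 (3.51-fold), Zfp708 (3.29-fold) and Zfp397 (3.20-fold), none on chromosome 4. At the gene ends the chromosome 4 members were occupied in 8 of 14 cases with TBC1D3 (57.1%, beside 34.7% of all genes) and 3 with MICAL1-M1 (21.4%, beside 40.4%). At DIV7 there were 5 (35.7%, beside 34.3%) and in the control 0 (beside 44.3%). A count of 0 of 14 allows a share of up to about 21.4%, taken as 3 over the number of members and not as an exact interval.

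The 6 clusters with the most members differed among themselves. Over all genes 34.7% were occupied with TBC1D3, 40.4% with MICAL1-M1, 34.3% at DIV7 and 44.3% in the control. The largest cluster lay below these shares in every list. The largest, 23 genes from Zfp712 to Zfp273 on chromosome 13 (67038594 to 67827000), was occupied at 5 members with TBC1D3, 8 with MICAL1-M1, 4 at DIV7 and 9 in the control. The 15 genes from Zfp84 to Zfp146 on chromosome 7 (29768552 to 30169775) were occupied at 2, 9, 4 and 10 members in the same order. In this cluster the control and MICAL1-M1 lists lay above the shares of all genes and the other 2 below. The 13 genes from Zfp677 to Zfp943 on chromosome 17 (21383707 to 21994366) had 5, 6, 7 and 7, with little spread between lists. The 10 genes from Zfp180 to Zfp94 on chromosome 7 had 2, 2, 1 and 3. The 9 genes from Zfp978 to Zfp933 on chromosome 4 ran the other way, with 6, 3, 4 and 0. The 8 genes from Zfp607b to Zfp850 on chromosome 7 had 0, 1, 5 and 2, and were the one among these 6 clusters where DIV7 had more than each other list; a cluster of equal size on chromosome 17 from Zfp871 to Zfp563 had 3, 5, 4 and 6. Over all 50 clusters the body density was higher than in the control in 40 with TBC1D3, 29 with MICAL1-M1 and 40 at DIV7, and 21 clusters had no body summit in the control. The bodies of all genes were also denser than in the control, 1.62 times with TBC1D3, 1.38 times with MICAL1-M1 and 1.67 times at DIV7. The control list is the shortest, and the part of list size in these cluster counts was not tested.

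**Figure D4:**
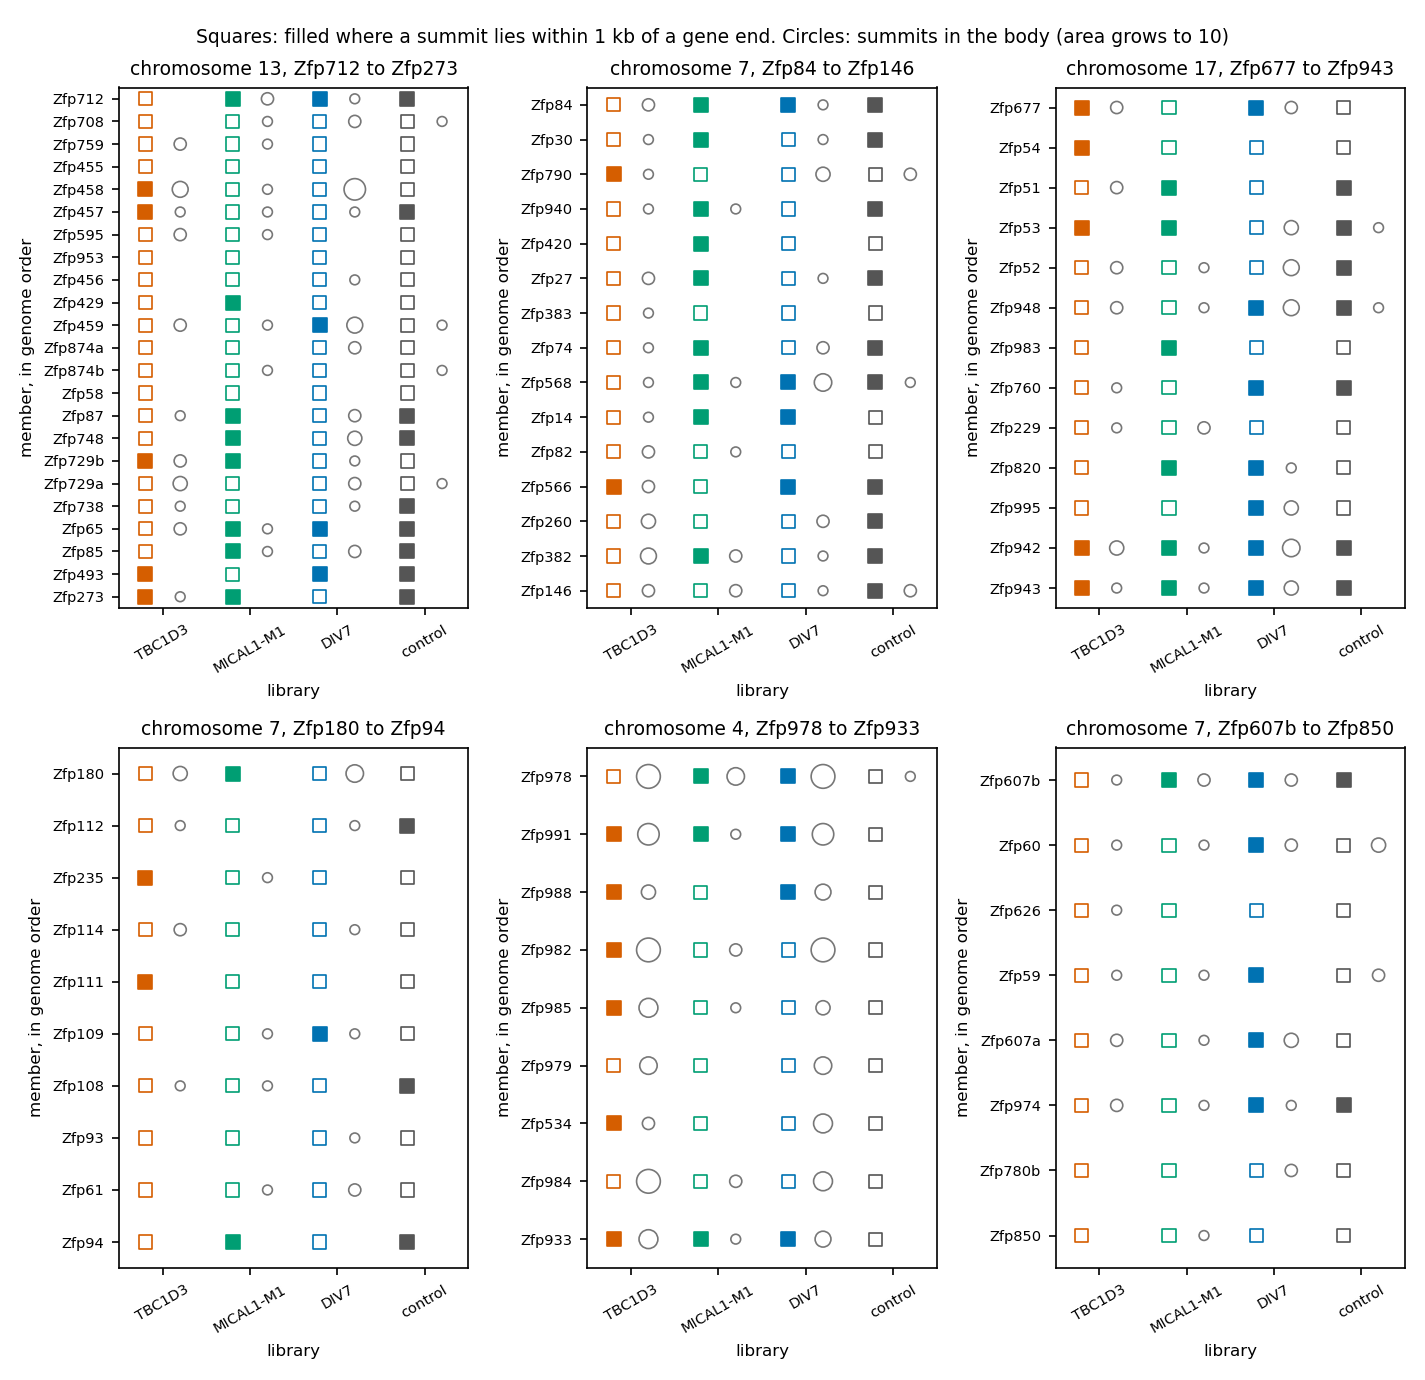
The members of 6 of the largest clusters in genome order (rows) in the 4 libraries (columns). A square is filled where a summit lies within 1 kb of a gene end, and the area of a circle grows with the number of summits in the body, up to 10; the chromosome 4 cluster has no filled square in the control and 6 with TBC1D3.

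Of 14 symbols listed for a known function, 8 are members. Zfp568, which represses a placental transcript of Igf2, was occupied with MICAL1-M1 (1.94-fold), at DIV7 (2.19-fold) and in the control (2.38-fold), and not with TBC1D3. Zfp809, which silences retroviruses in mouse embryonic stem cells, had a summit at its 3' end with TBC1D3 (1.80-fold, 3 fragments) and one at its 5' end in the control (2.23-fold, 14 fragments). Zfp932, a repressor of endogenous retroviruses, was occupied at its 5' end with MICAL1-M1 (3.32-fold) and in the control (2.63-fold). Zfp110, whose product binds the neurotrophin receptor p75, had a summit near its 3' end at DIV7 (2.78-fold) and at its 5' end in the control (2.13-fold). Zfp445, which helps to keep genomic imprints, was occupied with MICAL1-M1 alone (2.18-fold). Zfp961 was occupied with TBC1D3 (2.04-fold) and in the control (1.81-fold), and Zfp708 and Zfp93 in no list. All of these gene-end peaks had a q above 0.05.

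The partners through which such proteins silence chromatin were listed as 30 genes of the TRIM28 and H3K9 methylation pathway. Of these, 10 were occupied with TBC1D3, 19 with MICAL1-M1, 7 at DIV7 and 17 in the control. The shares over all genes were 34.7%, 40.4%, 34.3% and 44.3%. As shares of the 30, the counts lay above all genes with MICAL1-M1 and in the control, and below with TBC1D3 and at DIV7. Atrx, occupied with MICAL1-M1 alone, and Suv39h1 lie on chromosome X, which the shares over all genes do not cover. Cbx3, an HP1 protein gene, Morc2a, of the HUSH silencing pathway, and Mbd1, which binds methylated DNA, were occupied in all 4 lists. Their control folds were 3.94, 5.70 and 2.85. Setdb1, Pphln1, Fam208a, Suv39h1, Dnmt1 and Dnmt3a had no gene-end summit in any list. Peaks with q up to 0.05 stood at 1 of the 30 with MICAL1-M1, Cbx3 (4.15-fold), beside 1.4% of all genes. In the control they stood at 8 of the 30, beside 8.95% of all genes.

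Promoter sequence was available at the gene start for 126 members and 11890 genes in all. The members had a median of 51.8% G and C and 11 CG pairs in 300 bp, beside 55.3% and 12 over all genes. Members with 15 to 24 CG pairs had a 5' summit more often than those with 5 to 14 with MICAL1-M1 and in the control. Of 72 members with 5 to 14 pairs, 15 had a 5' summit with TBC1D3 (20.8%, beside 24.8% of all genes in that range), 38 with MICAL1-M1 (52.8%, beside 31.7%), 17 at DIV7 (23.6%, beside 23.2%) and 38 in the control (52.8%, beside 37.8%). Of 36 members with 15 to 24 pairs there were 9 with TBC1D3 (25.0%, beside 29.0%), 25 with MICAL1-M1 (69.4%, beside 54.4%), 9 at DIV7 (25.0%, beside 27.9%) and 27 in the control (75.0%, beside 64.6%). Among the 13 members with at most 4 pairs, 4 had a 5' summit with TBC1D3 (30.8%, beside 13.1% of all genes), 2 with MICAL1-M1 (15.4%, beside 5.44%), 2 at DIV7 (15.4%, beside 14.5%) and 4 in the control (30.8%, beside 4.76%). Of the 5 members with at least 25 pairs there were 3 with TBC1D3, 4 with MICAL1-M1, 2 at DIV7 and 4 in the control, beside 38.0%, 62.0%, 35.8% and 72.6% of all genes.

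Of 9 motifs searched on both strands, the Zfp143-type motif, which reads ACTACA, any 2 bases, then TCCC, had the highest ratio of members to all genes. It was present in 32 of 126 member promoters (25.4%), beside 342 of 11890 (2.88%) over all genes and 4 of 86 Zfp genes without a neighbour (4.65%). The cluster on chromosome 13 held 13 of the 32, among 14 of its promoters with a sequence, and the cluster from Zfp84 to Zfp146 held 6. Tandem copies share their promoters by descent, so these are not independent matches. In the promoters printed above it occurs in Zfp455 as ACTACATATCCC and in Zfp456 as ACTACATCTCCC, each on the strand opposite to the printed one. Of the 32 members with it, 1 had a 5' summit with TBC1D3 (3.13%, against 31.9% of the 94 without it), 17 with MICAL1-M1 (53.1%, against 55.3%), 5 at DIV7 (15.6%, against 26.6%) and 20 in the control (62.5%, against 56.4%). Over all genes with the motif the shares were 22.5% with TBC1D3, 56.7% with MICAL1-M1, 22.5% at DIV7 and 68.4% in the control, against 25.0%, 34.6%, 24.4% and 40.3% of genes without it. Over all genes the motif thus went with more 5' summits with MICAL1-M1 and in the control. Among the members it did so in the control, by a narrower gap, and not with MICAL1-M1. A low share with TBC1D3 was thus seen in the clustered Zfp genes and not over all genes with the motif, on 1 library and 1 gene. With TBC1D3 the chromosome 13 cluster had a 5' summit at 1 of its 20 members with a known strand, with or without the motif. The cluster from Zfp84 to Zfp146 had one at 1 of 14. Motif and cluster can therefore not be told apart here.

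The CCAAT box (CCAAT) was in 57.9% of member promoters, beside 40.7% of all, the telomere repeat TTAGGG in 16.7%, beside 10.2%, the GC box (GGGCGG) in 38.1%, beside 44.6%, and the TATA box (TATAAA) in 5.56%, beside 15.7%. The ETS-type motif CCGGAAGT was in 7.94%, beside 5.47%, the Nrf1-type motif (GCGC, any base, then TGCGC) in 8.73%, beside 6.91%, the E-box CACGTG in 9.52%, beside 7.90%, and the CRE motif TGACGTCA in 4.76%, beside 2.51%. Zfp genes without a Zfp neighbour held the CCAAT box in 51.2% of promoters, the telomere repeat in 17.4% and the TATA box in 6.98%. For these motifs the departure from all genes was thus not confined to the clustered genes. The GC box (52.3%) and the CRE motif (2.33%) did not depart from all genes in the members' direction there. None of the 9 motifs holds the letters of another, and a match does not show binding.

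**Figure D5:**
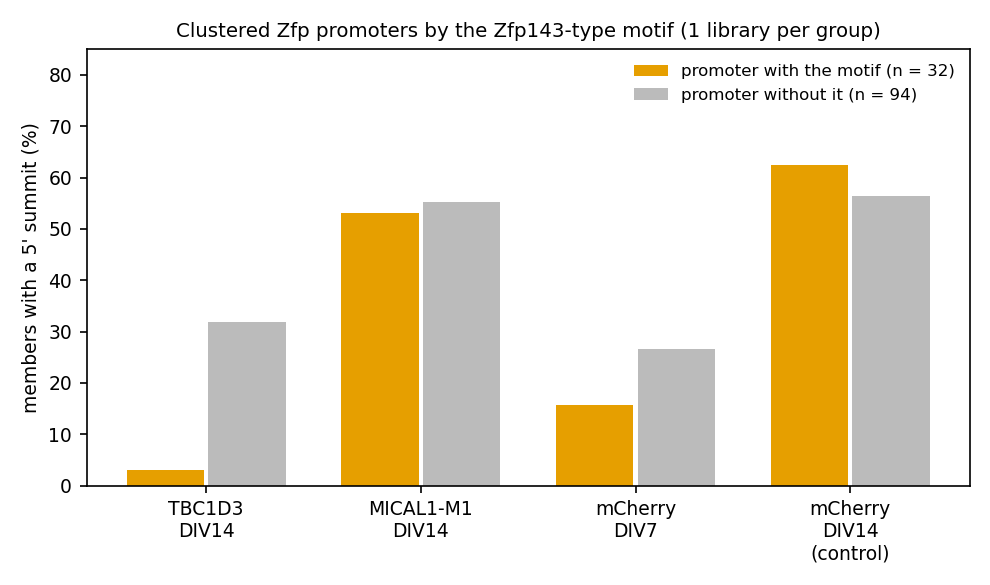
Share of clustered Zfp genes (percent) with an ATRX summit within 1 kb of the 5' end, for the 32 members whose 300 bp promoter holds the Zfp143-type motif and the 94 whose promoter does not, in each library (1 per group, so no error bars). With TBC1D3 the bars stand at 3.13% and 31.9%, and in the control at 62.5% and 56.4%.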

How the data were processed

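The deposited peak lists have 10 columns without a header in the narrowPeak layout, 1 library per list. The submitters' processing notes name ChIPseeker 1.26.2, MACS 1.4.2, SAMtools 1.9 and Bowtie 1.3.0, with no settings; that MACS version is not known to write this layout with q-values, so the caller behind the folds, p and q is uncertain. No build was given in the sources used here; scaffold names in the lists are those of GRCm38. The deposited score is the -log10 p multiplied by 10 with its decimals dropped. The deposited fold is a ratio of ChIP pileup to local background with 1 fragment added to each, so it lies below the plain ratio. The deposited -log10 values are those of a p-value and of a q-value. The deposited p-values are uncorrected and reach up to 0.05. The whole number of fragments at each summit was recovered from the fold and the p under a Poisson law; 99.97% to 100% of 3000 peaks tried per list came within 0.001 of their log10 p.

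Gene positions and promoters are those of RefSeq for GRCm38.p6, matched by gene ID; coordinates are 1-based. Promoters were used where their start lies within 50 bp of the gene's 5' end. Summits were counted in windows of 1 kb around gene ends and in merged bodies with Python 3.11.15, pandas 2.3.3 and scipy 1.17.1; the counting was tested on simulated data. No test between groups was possible with 1 library each.

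Named genes follow a fixed rule: members in all 4 lists, members with a q of at most 0.05 (the 10 highest by fold in each list), members in the control alone or in the other 3 lists alone (5 each), the 6 largest clusters, and 2 listed groups of known genes. Zfp978, Zfp982, Zfp993, Zfp786 and Zfp397 were named for their bodies, and the motifs chosen, after values were seen. The members and lists were chosen with earlier results of these data known.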

Additional observations from a re-analysis of the deposited data

How the results depend on the processing

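Of 108 alternative values, 79 stayed near the reported ones, 26 moved and 3 changed direction; near means within 1.5 times for counts, within the joint counting error for differences (9.15 points with TBC1D3, 9.53 with MICAL1-M1, 9.38 at DIV7) and within the 95% Poisson interval for body ratios. By that measure linkage of 50 or 200 kb and counting a gene when 1 base of a peak touched its window moved none, but the MICAL1-M1 difference of -7.66 points, smaller than its error, was -4.05 with 1 base and -14.4 with lists of equal size. In a 0.5 kb window 42 members were occupied with TBC1D3 and 47 at DIV7. In a 3 kb window they numbered 131 and 142; the difference from the control was -3.15 percentage points with TBC1D3, 2.25 with MICAL1-M1 and 1.80 at DIV7, and 5' exceeded 3' members by 3 at DIV7. With lists of equal size 38 were occupied with TBC1D3 and 40 at DIV7, with differences of -38.3 and -37.4 points, the 5' excess at DIV7 was 6 and the TBC1D3 body ratio 1.35. At a q of at most 0.05 the occupied members were 0 with TBC1D3, 4 with MICAL1-M1, 1 at DIV7 and 19 in the control, with 5' excesses of 0, 4, 1 and 17; differences were -8.56 points with TBC1D3 and -8.11 at DIV7, and body ratios were 2.75, 0, 5.78 and 0.421 on 1, 0, 3 and 3 summits. At that q all genes stood at 0.15% with TBC1D3, 0.237% at DIV7 and 8.95% in the control. The members stood at 0%, 0.45% and 8.56% in the same order, so their fall was no larger than that of all genes. With lists of equal size all genes stood at 20.4%, 18.9% and 44.3%, and the members' fall was the larger one. All-gene shares in the 0.5 kb window are not given here. Without the chromosome 4 members the TBC1D3 body ratio was 0.888. The causes were not tested. No paired analysis was possible because each group has 1 library. The TBC1D3 and DIV7 lists have a background near 1 fragment, which limits what a single summit shows.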
